A study of Mus musculus with 6 samples.

Results

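Chemokines are small secreted proteins that steer migrating cells, and their receptors are membrane proteins that signal mainly through inhibitory G proteins. They are named by the spacing of conserved cysteines (CC, CXC, CX3C and XC), and atypical receptors (Ackr) bind chemokines without the usual G protein signal. In marrow, several of these ligands restrain or mobilise progenitors, and several receptors mark the myeloid, lymphoid and dendritic cells that descend from them. The genes described are every symbol made of Ccl, Cxcl, Ccr or Cxcr and a number, with or without a letter, apart from Cxcl12 and Cxcr4. Cx3cl1, Cx3cr1, Xcl1, Xcr1 and the atypical receptors Ackr1, Ackr2 and Ackr4 were added. They are called the family below. Chemokine genes under other names, such as Pf4 and Ppbp, were left out. The rule found 58 of the 48395 symbols, 38 ligands and 20 receptors, and it used names only.

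RNA was sequenced from LSK cells, marrow cells that lack lineage markers, carry Sca-1 and c-Kit on their surface and include the haematopoietic stem cells, sorted from mice. Both groups started from marrow of 5-fluorouracil-primed Mx1Cre; Jak2V617F/+ mice (Cre under the interferon-inducible Mx1 promoter), so the controls carry the activating Jak2 allele too. That marrow was transduced with lentivirus carrying vector alone (3 libraries) or Hmga2 (3 libraries) and transplanted into lethally irradiated C57BL/6 recipients. Marrow was taken 32 weeks after transplantation. The labels call the libraries of a group biological replicates and do not say whether animals were pooled, what share of the sorted cells carried the vector, or whether any host cells remained.

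Total counts ranged from 24818011 to 35471806 per library, so that 3 reads, the limit that a count of 0 allows, corresponded to 0.0846 to 0.121 CPM (counts scaled to library size). These limits cover counting error only. The sort markers were present in every library, with Kit at 248 to 375 CPM and Ly6a, encoding Sca-1, at 19.3 to 59.1 CPM. Genes listed as markers of other lineages were counted as well, and the part that LSK cells themselves made was not tested. The 14 plasma and B cell markers summed to 812 to 13800 CPM in the vector libraries and 632 to 4585 CPM in those labelled Hmga2. The 14 neutrophil and promyelocyte markers summed to 4486 to 9475 and 3133 to 5030 CPM in the same order, mostly Mpo with a mean of 3473 CPM. The 13 basophil, mast cell and eosinophil markers summed to 658 to 1007 and 504 to 932 CPM, with Gata2 the highest at a mean of 317.5 CPM. Of 14 T and NK cell markers 4 (Cd3e, Cd3g, Gzma and Prf1) averaged under the 3-read limit, while the 14 summed to between 153 and 255 CPM, mostly Nkg7 with a mean of 170.3 CPM. Hmga2 itself measured 5.97, 5.02 and 7.04 CPM with vector alone and 2.64, 6.62 and 5.92 CPM under the Hmga2 label. It was thus no higher where the label says Hmga2 (log2 fold change -0.25, SE 0.35, adjusted p = 0.934 in edgeR), and directions below are those of the libraries labelled Hmga2. Whether reads of the introduced Hmga2 reached this gene's count was not tested.

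A minority of the family was expressed in these LSK libraries. By the mean over all 6 libraries, 4 genes were at 10 CPM or more, 19 between 1 and 10 CPM, 16 between the 3-read limit and 1 CPM, 12 under that limit, and 7 had no read in any library. The 23 genes at 1 CPM or more were 15 of 38 ligands and 8 of 20 receptors. All 20 receptor genes had at least 1 read, and the 7 genes without a read were all ligands. Presence of a read is not corrected for gene length. Those 7 have 282 (Ccl26) to 2369 (Ccl1) bases of merged exons, and the receptor genes 1175 (Ccr8) to 10260 (Ccr9). A read anywhere was found for 26164 of the 48395 symbols and for 51 of the 58 family genes. Of all symbols with a read, 55.6% reached a mean of 1 CPM, against 45.1% of the family genes with a read. Both shares leave out symbols without a read, which are a larger part of all symbols than of the family. Over all 58 genes the share was 39.7%. Ccl9 alone made up 46.7% of the summed CPM of these 58 genes, which is not divided by gene length, and the 4 genes with the highest CPM 76.6%. These shares leave out Pf4, which averaged 114 CPM. Ccl17 (1.03 CPM) and Ccl19 (1.00 CPM) lay just inside the limit of 1 CPM, and Ccr7 (0.705 CPM) and Ccr10 (0.612 CPM) just outside. These are bulk libraries, in which fewer cells of a type and less RNA per cell cannot be told apart.

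**Figure D1:**
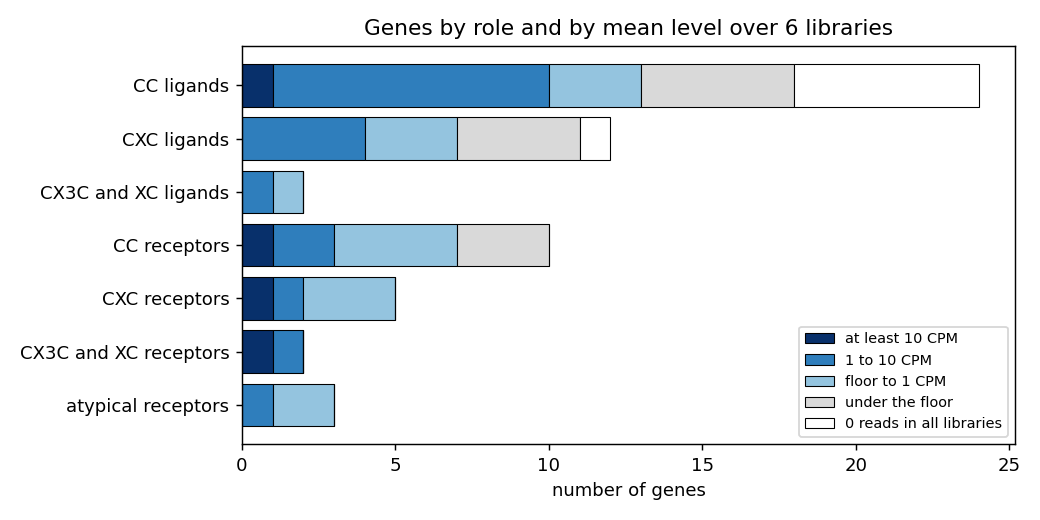
Number of genes (horizontal axis) in each role, divided by mean level over the 6 libraries; darker colours mark higher means and white marks 0 reads in all libraries. Of 24 CC ligands 10 reached 1 CPM and 6 had no read, while 2 of 2 CX3C and XC receptors reached 1 CPM.

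Among the CC ligands, Ccl9 stood far above the others. Ccl9 (chromosome 11, positions 83572919 to 83578636, minus strand, mm10), which encodes a chemokine of myeloid cells that binds Ccr1, measured 65.0, 153 and 119 CPM with vector alone and 158, 94.5 and 96.6 CPM under the Hmga2 label. Vector replicate 1 was the lowest of all and the library labelled Hmga2 replicate 1 the highest, and the groups overlapped. The log2 fold change (libraries labelled Hmga2 over vector) was 0.06, SE 0.33, with a 95% interval of -0.72 to 0.83. Divided by merged exon length, the level was 37.5 CPM per kilobase, followed by Ccl3 at 7.30 and the receptor gene Ccr2 at 6.07 CPM per kilobase. Using the longest protein-coding transcript instead, Ccl9 stayed first at 38.0 CPM per kilobase but Ccl27a came second at 9.71.

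Ccl6 lies next to Ccl9 (positions 83587882 to 83593087, minus strand) and encodes a related myeloid chemokine. It measured 8.76, 5.15 and 6.99 CPM with vector alone and 2.97, 7.81 and 8.62 CPM under the Hmga2 label. Its order over the libraries was nearly the reverse of that of Ccl9: vector replicate 1 held the highest Ccl6 and the lowest Ccl9, and the library labelled Hmga2 replicate 1 the lowest Ccl6 and the highest Ccl9. Its log2 fold change was -0.11 (SE 0.41). The ratio of Ccl9 to Ccl6 CPM went from 7.42 to 53.4 between those libraries. This pair was chosen after its values were seen, and the relation was not tested.

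Ccl3 and Ccl4, which encode the macrophage inflammatory proteins 1-alpha and 1-beta and of which the former is known to restrain progenitor cycling, lie head to head on chromosome 11. Ccl3 measured 7.34, 10.7 and 2.72 CPM with vector alone and 4.32, 2.80 and 5.65 CPM under the Hmga2 label. Ccl4 measured 5.17, 4.38 and 1.80 CPM and then 2.03, 2.37 and 4.28 CPM. Both were high in vector replicates 1 and 2 and low in vector replicate 3, and for both the groups overlapped (log2 fold changes -0.70, SE 0.49, and -0.39, SE 0.45). Ccl5, the fifth gene of this stretch and a ligand of Ccr1 and Ccr3, measured 1.58, 1.77 and 2.01 CPM and then 2.60, 1.17 and 2.86 CPM (log2 fold change 0.31, SE 0.36). All 5 genes of the stretch, from 83525778 to 83664683, were above 1 CPM. In the neighbouring stretch from 82035571 to 82305690, 1 of 6 was: Ccl2 reached 1.43 CPM, while Ccl8 averaged 0.111 CPM, Ccl7 and Ccl12 were under the limit, and Ccl1 and Ccl11 had no read.

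Ccl2, encoding the monocyte attractant that binds Ccr2, was the only tested gene of the family whose groups did not overlap. It measured 2.24, 1.77 and 1.63 CPM with vector alone and 0.594, 1.20 and 1.17 CPM under the Hmga2 label, from 21 to 71 reads each. The means were 1.88 ± 0.317 and 0.987 ± 0.342 CPM (SD, n = 3 each). The log2 fold change was -0.93 (SE 0.34, interval -1.73 to -0.13). It did not pass over all genes (adjusted p = 0.855 in edgeR; adjusted p = 0.781 in DESeq2). An exact two-sided permutation test gave p = 0.1, the smallest that 3 libraries against 3 allow. The gene overlaps Gm17268 on the other strand, and without a stated strand setting reads of the pair cannot be told apart.

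The other CC ligands at 1 CPM or more are known mainly from epithelium, thymus, lymph node and dendritic cells. Ccl27a, the skin chemokine that binds Ccr10, varied least of the 23 expressed genes, from 6.00 to 9.21 CPM with a coefficient of variation of 17.2%. It overlaps Il11ra1 on the opposite strand, and reads of the pair cannot be told apart. Ccl25, the thymic ligand of Ccr9, was at 1.49 to 2.93 CPM and overlaps Elavl1 on the opposite strand. Its level per kilobase was 0.318 over merged exons and 2.24 over the longest transcript. Ccl17 was at 0.504 to 1.85 CPM and Ccl19, a ligand of Ccr7 with pseudogene copies, at 0.586 to 1.57 CPM. Ccl28 and Ccl27b averaged 0.171 and 0.144 CPM from at most 7 and 8 reads, and Ccl22, Ccl24 and Ccl21b were under the limit. Ccl20, Ccl21a, Ccl21c and Ccl26 had no read. The Ccl21 and Ccl27 genes have near-identical copies, among which reads could have been divided.

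Of the 12 CXC ligands under the name rule, 4 reached a mean of 1 CPM. Pf4, a CXC ligand that the rule leaves out, averaged 114 CPM. Cxcl16, a membrane-bound ligand of Cxcr6, measured 5.36, 0.423 and 1.67 CPM with vector alone and 0.988, 2.05 and 4.55 CPM under the Hmga2 label. It was high in 1 library of each group, vector replicate 1 and the library labelled Hmga2 replicate 3, and its coefficient of variation was 79.5%, against 11.2% from counting alone (log2 fold change 0.016, SE 0.88). Cxcl14 measured 0.347, 0.653 and 2.89 CPM and then 0.0848, 1.63 and 2.07 CPM, with 3 reads in its lowest library. The interferon-induced ligands of Cxcr3, Cxcl9 and Cxcl10, were at 0.618 to 2.01 and at 0.455 to 2.33 CPM. For both of these the lowest library was labelled Hmga2 replicate 2 and the highest labelled Hmga2 replicate 3, so that the vector libraries lay inside the range of the other group. Cxcl11, beside them on chromosome 5, averaged under the limit.

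A block of neutrophil-attracting CXC ligands was quiet. Cxcl5, Cxcl3, Cxcl15, Cxcl1 and Cxcl2 lie between positions 90759360 and 90905938 of chromosome 5, and none reached a mean of 1 CPM. Cxcl2 was at 1.04 CPM (33 reads) in vector replicate 1 and at 0 to 0.291 CPM in the other 5 libraries. Cxcl5 was at 0 to 0.524 CPM, and Cxcl1 had reads in vector replicate 1 alone, 5 of them. Cxcl13, the B cell follicle chemokine, was at 0.0769 to 0.544 CPM, and Cxcl17 had no read. Cx3cl1, the membrane-tethered ligand of Cx3cr1, measured 3.43, 0.730 and 0.544 CPM with vector alone and 0.339, 0.781 and 1.81 CPM under the Hmga2 label. Vector replicate 1 alone was above 2 CPM, and the log2 fold change was -0.70 (SE 0.84). Xcl1, the ligand of Xcr1, was at 0 to 0.320 CPM.

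The 250 bases before the start site are shown for Ccl9, the most abundant of the 58 genes, and for the quiet neutrophil attractants Cxcl1, Cxcl2 and Cxcl3. They are also shown for Cxcl10, an expressed CXC ligand whose window holds an NF-kB word as well. The sequences are from RefSeq (GRCm38.p6), where 42 of the 58 genes were matched by symbol. Capitals mark words found on either strand. The words were GGGANNTTC (NF-kB), TGANTCA (AP-1), GAAANNGAA (interferon response), TTCNNNGAA (STAT), TTGCNNAA (C/EBP), GAGGAAGT (PU.1) and TATAAA (core promoters, called TATA words here). Ccl9 is at chr11:83578637-83578886 (minus strand), Cxcl1 at chr5:90890995-90891244 (plus), Cxcl2 at chr5:90903649-90903898 (plus), Cxcl3 at chr5:90785851-90786100 (plus) and Cxcl10 at chr5:92348890-92349139 (minus).
Ccl9: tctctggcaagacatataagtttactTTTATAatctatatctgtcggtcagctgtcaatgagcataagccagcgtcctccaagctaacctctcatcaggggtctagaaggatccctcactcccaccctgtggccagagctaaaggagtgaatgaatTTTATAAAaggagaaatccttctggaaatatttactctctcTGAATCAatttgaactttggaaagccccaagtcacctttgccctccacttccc
Cxcl1: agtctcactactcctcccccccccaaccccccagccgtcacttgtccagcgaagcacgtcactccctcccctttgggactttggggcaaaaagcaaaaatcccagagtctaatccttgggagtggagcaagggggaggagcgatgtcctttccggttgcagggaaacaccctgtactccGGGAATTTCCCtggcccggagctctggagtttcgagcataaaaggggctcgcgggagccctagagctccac
Cxcl2: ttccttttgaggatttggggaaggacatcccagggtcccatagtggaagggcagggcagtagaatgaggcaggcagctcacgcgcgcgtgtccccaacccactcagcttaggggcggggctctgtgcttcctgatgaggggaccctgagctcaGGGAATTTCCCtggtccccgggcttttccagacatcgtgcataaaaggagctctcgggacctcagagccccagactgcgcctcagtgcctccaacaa
Cxcl3: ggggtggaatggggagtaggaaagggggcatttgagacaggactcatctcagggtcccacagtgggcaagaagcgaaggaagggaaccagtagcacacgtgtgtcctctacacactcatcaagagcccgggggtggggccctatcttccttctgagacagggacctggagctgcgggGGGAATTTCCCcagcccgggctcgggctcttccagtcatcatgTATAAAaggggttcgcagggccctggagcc
Cxcl10: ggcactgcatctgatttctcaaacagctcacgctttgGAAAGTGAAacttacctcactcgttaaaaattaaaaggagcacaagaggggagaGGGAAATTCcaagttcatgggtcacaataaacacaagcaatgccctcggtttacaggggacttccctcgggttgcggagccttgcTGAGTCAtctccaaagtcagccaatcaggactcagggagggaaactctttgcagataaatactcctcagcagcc

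In Cxcl1, Cxcl2 and Cxcl3 the capitals hold the same NF-kB word, read on both strands with an overlap, which begins 71, 97 and 73 bases before the start site. Cxcl10 has that word in another spelling, with an AP-1 and an interferon response word. Ccl9 has an AP-1 word that begins 53 bases before the start, TATA words, of which a pair overlap from 94 to 87 bases before it, and no NF-kB word. Cxcl3 has a TATA word as well, from 30 to 25 bases before its start. The NF-kB word was in 8 of the 42 windows (Ccl1, Ccr3, Cxcl1, Cxcl2, Cxcl3, Cxcl9, Cxcl10 and Cxcr2), or 19.0%, beside 3.17% of 27025 promoter windows of the same length. Of these 8 genes 3 (Cxcl9, Cxcl10 and Cxcr2) had a mean of 1 CPM or more. The interferon response word was in 8 windows as well (19.0%, beside 7.16% of all), and 7 of those genes (Ccl3, Ccl19, Ccr2, Cxcl9, Cxcl10, Cxcl14 and Cxcr1, but not Ccl1) reached 1 CPM, where 18 of the 42 did. The STAT word was in 3 windows (Ccl17, Ccr6 and Cxcl14), or 7.14%, beside 7.18% of all windows. AP-1 words were in 5 (11.9%, beside 6.87%), TATA words in 10 (23.8%, beside 13.0%), C/EBP words in 3 (7.14%, beside 9.55%) and PU.1 words in 1 (2.38%, beside 2.44%). With a further C at its end the NF-kB word was in 6 of the windows and 1.17% of all, and with a further A the interferon response word was in 3 and 3.04%. The NF-kB windows include neighbouring genes with similar sequences, so they are not independent. A match describes letters and shows no binding.

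**Figure D2:**
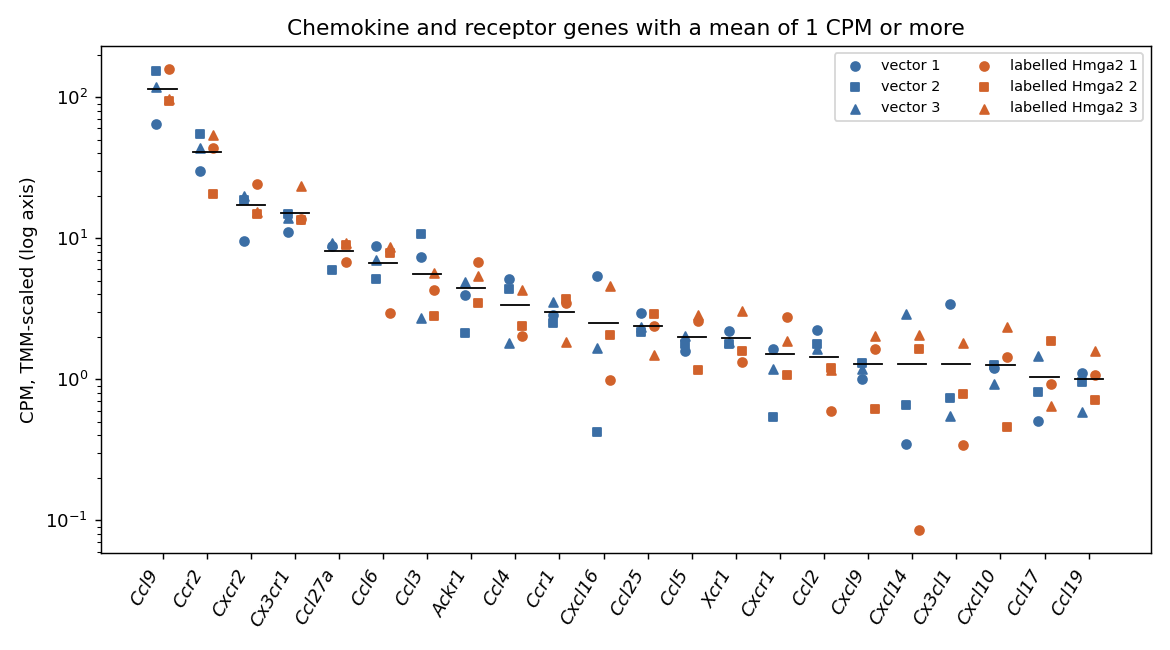
Level of each gene with a mean of 1 CPM or more, apart from 1 that is not shown (vertical axis: TMM-scaled CPM, log axis), with 1 point per library; blue is vector, orange is labelled Hmga2, the marker shape gives the replicate and the line is the mean of 6. Ccl9 lies between 65.0 and 158 CPM, and in every gene shown but Ccl2 the blue and orange points overlap.

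Ccr2 and Cxcr2, receptors of myeloid cells, had the highest receptor levels per kilobase of merged exons, 6.07 and 5.61 CPM. Cx3cr1 at 3.34 and the atypical receptor Ackr1 at 3.16 CPM per kilobase followed, in the opposite order by the longest transcript (3.35 and 3.86). Ccr2, the receptor that lets monocytes and their progenitors leave the marrow, measured 29.8, 54.5 and 43.8 CPM with vector alone and 43.3, 20.7 and 53.9 CPM under the Hmga2 label. The lowest values were in vector replicate 1 and the library labelled Hmga2 replicate 2 (log2 fold change -0.12, SE 0.36, interval -0.97 to 0.73). Cxcr2, the main neutrophil chemokine receptor, measured 9.61, 18.8 and 20 CPM and then 24.2, 14.8 and 15.3 CPM (log2 fold change 0.17, SE 0.32). Its neighbour Cxcr1 on chromosome 1 measured 1.64, 0.538 and 1.17 CPM and then 2.74, 1.07 and 1.86 CPM, and per kilobase Cxcr2 was 5.56 times as high. Cxcr1 had the largest positive log2 fold change among the expressed genes, 0.76 (SE 0.49, interval -0.40 to 1.91, adjusted p = 0.855 in edgeR). Cx3cr1, a receptor of monocytes and macrophages, measured 11.1, 14.8 and 14.0 CPM and then 13.7, 13.5 and 23.3 CPM. The last of these values, in the library labelled Hmga2 replicate 3, stood above the other 5 (log2 fold change 0.34, SE 0.25).

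Genes of the receptor cluster on chromosome 9 differed widely in level although they are neighbours. Ccr9, Cxcr6, Xcr1, Ccr1, Ccr3 and Ccr2 lie there, and 3 of these 6 reached 1 CPM. Ccr1, which binds Ccl3, Ccl5 and Ccl9, measured 2.87, 2.50 and 3.52 CPM with vector alone and 3.45, 3.71 and 1.84 CPM under the Hmga2 label (log2 fold change 0.018, SE 0.31). Xcr1, a marker of cross-presenting dendritic cells, measured 2.21, 1.77 and 1.84 CPM and then 1.33, 1.59 and 3.06 CPM. The library labelled Hmga2 replicate 3 was the highest for Xcr1, and in both genes the groups overlapped. Per kilobase of merged exons, the level of Ccr2 was 5.77 times that of Ccr1. Ccr3, the eosinophil receptor, lies between Ccr1 and Ccr2 and was at 0 to 0.630 CPM, from at most 20 reads. Cxcr6 was at 0.115 to 0.495 CPM.

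Receptors of lymphocytes were low and uneven. Ccr7, which guides cells to lymph nodes, was at 0.163 to 1.66 CPM, Cxcr3 of effector T and NK cells at 0.115 to 1.34 CPM and Cxcr5 of follicular B cells at 0 to 0.466 CPM. For all 3 the highest library was labelled Hmga2 replicate 3. Ccr9, the thymus and gut homing receptor, measured 1.01, 0.115 and 0.786 CPM with vector alone and 0.200, 0.0976 and 0.320 CPM under the Hmga2 label. Its log2 fold change of -1.62 was the largest in size among the 27 tested genes, SE 0.78, with an interval of -3.47 to 0.23. It rested on 3 to 32 reads per library, and the groups overlapped. Ccr4, Ccr6 and Ccr8 averaged under the 3-read limit.

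Ccr10, the receptor that guides antibody-secreting cells to mucosa and T cells to skin, separated the libraries across the groups. It measured 1.58, 0.115 and 0.963 CPM with vector alone and 0.0848, 0.878 and 0.0583 CPM under the Hmga2 label, or from 2 to 50 reads. The high values were in vector replicates 1 and 3 and in the library labelled Hmga2 replicate 2. Igha, the constant region of immunoglobulin A, measured 8930, 193 and 5469 CPM and then 236, 2535 and 214 CPM in the same order, and Jchain, which joins its units, measured 840, 25.4 and 686 CPM and then 45.8, 317 and 30.2 CPM. The 14 plasma and B cell markers in sum were at 13800, 812 and 11791 CPM and then 853, 4585 and 632 CPM. The 3 libraries with high Ccr10 were thus those with high immunoglobulin transcripts. The part of those transcripts in the Ccr10 values was not tested, and no difference between the groups was called (log2 fold change -1.41, SE 1.13, adjusted p = 0.87 in edgeR). Ccr10 also overlaps Cntnap1 on the other strand.

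**Figure D3:**
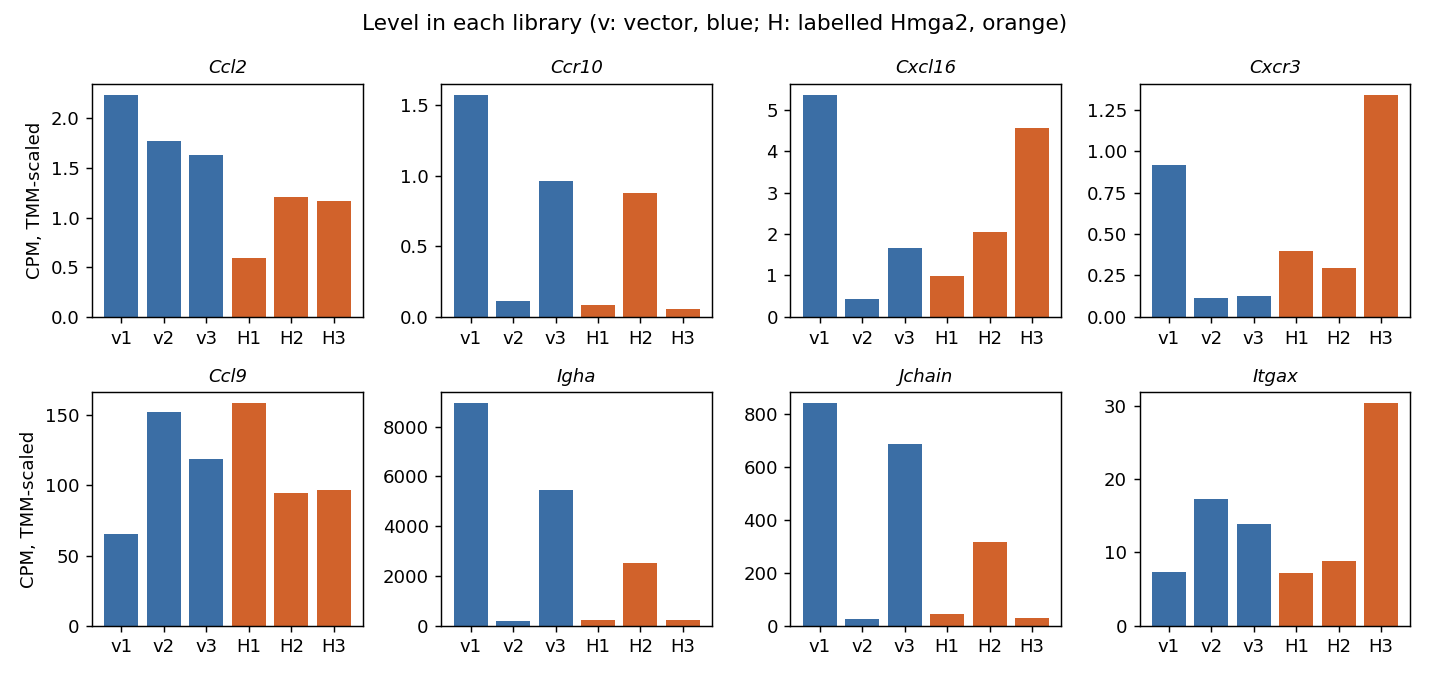
Level in each library (bars: TMM-scaled CPM from 0; v is vector, blue, and H is labelled Hmga2, orange) for 5 members of the family and 3 markers, Igha and Jchain of plasma cells and Itgax of dendritic cells and macrophages. Ccr10, Igha and Jchain are high in the same libraries, vector replicates 1 and 3 and labelled Hmga2 replicate 2, while Ccl2 is higher in each vector library than in any library labelled Hmga2.

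Of the atypical receptors in the family (Ackr1, Ackr2 and Ackr4), Ackr1 alone reached a mean of 1 CPM. Ackr1, a scavenging receptor of red cells and endothelium, measured 3.99, 2.11 and 4.93 CPM with vector alone and 6.78, 3.48 and 5.40 CPM under the Hmga2 label, which is 0.50 on the log2 scale (SE 0.37). Its gene overlaps Cadm3 on the same strand. Ackr2 and Ackr4 averaged 0.115 and 0.122 CPM. For Ackr4, which did not pass the filter on low counts, each library labelled Hmga2 lay above each vector library, from at most 8 reads. Of all genes tested, 5.29% were apart in that direction, and in the edgeR fit without the filter Ackr4 was not called (adjusted p = 0.844).

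The highest values of the family collected in a pair of libraries. Of the 27 tested genes, 9 had their highest value in the library labelled Hmga2 replicate 3 (33.3%) and 8 in vector replicate 1 (29.6%). Over all genes tested these shares were 10.2% and 15.1%. The library labelled Hmga2 replicate 3 had Itgax at 30.3 CPM, against 7.12 to 17.3 CPM in the other 5, and Clec9a, a dendritic cell gene, at 5.68 CPM against 1.51 to 3.57 CPM. Of the 16 monocyte, macrophage and dendritic cell markers, 8 were highest in this library and 8 elsewhere, among them Csf1r (93.6 CPM in vector replicate 2 against 78.7 CPM here), Ly6c2 (145 against 36.7 CPM) and Cd14 (12.4 against 2.94 CPM). The sum of the 16 was highest in this library, 550 CPM, where the other libraries labelled Hmga2 were at 297 and 403 CPM and the vector libraries at 358 to 514 CPM. Of the 14 T and NK cell markers, 5 were highest in this library, such as Il7r (4.60 against 0.769 to 1.45 CPM), and the rest elsewhere. Their sum was 178 CPM here and highest in vector replicate 3, at 255 CPM. Vector replicate 1 had the highest plasma and B cell sum. It also had the highest basophil, mast cell and eosinophil sum, 1007 CPM, with the library labelled Hmga2 replicate 2 next at 932 CPM. Of these 13 markers, 4 were highest in vector replicate 1 and 6 in the library labelled Hmga2 replicate 2. In vector replicate 1 Prg2 was at 240 CPM, against 3.03 to 60.8 CPM in the other 5, while Siglecf was at its lowest, 11.6 CPM. The part of these cell types in the family's values was not tested.

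Between the groups, edgeR called 0 of the 27 tested genes of the family and 0% of the 16739 genes tested. Genes were tested if they passed a filter on low counts, and 31 members did not. At an unadjusted p under 0.05 there was 1 member, Ccl2, beside 5.59% of all genes tested. Ccl2 was also the 1 tested member without overlap between the groups, beside 11.2% of all genes in either direction and 5.87% that were lower, like Ccl2, in the libraries labelled Hmga2. DESeq2 called 0 members and 0.425% of all genes. Without the filter, 51 members entered the fit and edgeR called none of them, beside 0.00389% of all genes. Of the 27 log2 fold changes 17 were positive and 10 negative, with a median of 0.06 beside 0.00 for all genes tested. The intervals of 8 genes (Ccl9, Ccr2, Cxcr2, Cx3cr1, Ccl27a, Ccr1, Ccl25 and Xcr1) lay within a 2-fold change in either direction. The other 19 intervals include a change of 2-fold or more. All 23 expressed genes varied between libraries by more than counting error, with a median coefficient of variation of 34.5%.

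**Figure D4:**
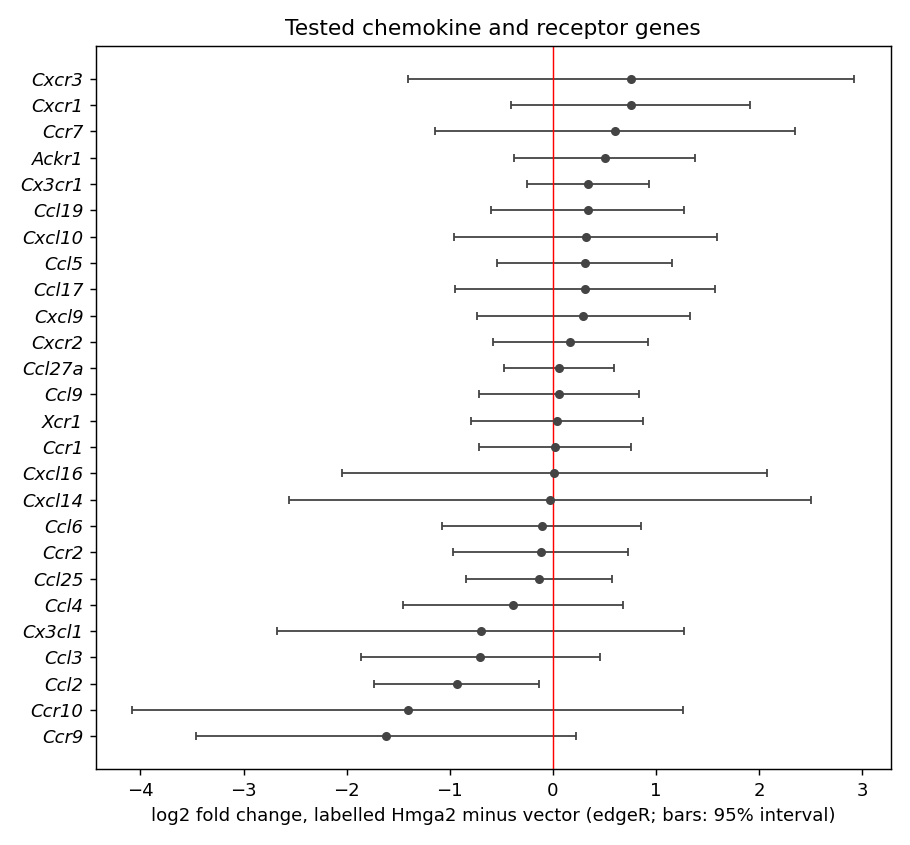
Log2 fold change, labelled Hmga2 minus vector, of the 27 tested genes apart from 1 that is not shown (points) with 95% intervals from edgeR (bars); the red line marks 0. The interval of Ccl2 ends at -0.13, and all others shown include 0.

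Genes that carry the signal of these receptors were abundant. A list of such genes held G protein subunits, receptor kinases, arrestins, Rgs proteins, small GTPases and their regulators, phosphoinositide kinase genes, phospholipases, Ptk2b and Was. Its 33 tested genes had a median level of 144 CPM. None passed the threshold in either direction in edgeR (smallest adjusted p = 0.855), while 24 log2 fold changes were positive and 9 negative, with a median of 0.06 beside 0.00 for all genes. For 7 of the 33 every library labelled Hmga2 lay above every vector library (5.29% of all genes), and 6 had an unadjusted p under 0.05 (5.59% of all genes). The smallest of these belonged to Pik3cg, the phosphoinositide kinase activated by G protein beta-gamma subunits, at 104 ± 8.02 and 126 ± 6.38 CPM (vector, then labelled Hmga2; SD, n = 3 each). Rgs18, which shortens G protein signals in megakaryocytes, was at 81.8 ± 8.38 and 103 ± 7.85 CPM. Gng2, a G protein gamma subunit, was at 52.7 ± 4.57 and 64.9 ± 3.92 CPM. Prex1, a Rac activator, was at 94.2 ± 10.8 and 119 ± 10.8 CPM. In these 4 genes each library labelled Hmga2 lay above each vector library. The list was chosen with earlier results of these data known. Its genes are also more abundant than most, as symbols with a read had a median of 2.16 CPM. The shares over all genes are therefore not a matched background for it, and no excess was tested.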

How the data were processed

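The authors deposited expected counts, estimated reads per gene symbol with 1 column per library; the unit was judged from the values, and 67.3% to 70.1% of those above 0 were whole within 1e-06. Per the submitters' processing notes, Partek 3.0 and Bowtie2 were used with build mm10; the sources used here do not name the counter, the annotation or whether strand was used. Groups came from the sample titles. Rounded counts went into edgeR 4.0.16 under R 4.3.3 (TMM scaling, filterByExpr, quasi-likelihood F test on group, Benjamini-Hochberg over 16739 genes, threshold 0.05); standard errors came from the F statistic. CPM are TMM-scaled. DESeq2 1.42.0, other size factors, no filter, a replicate block, leaving out immunoglobulin genes and leaving out each library were alternatives, and a second gene length was added after seeing the data. Every replicate pair differed beyond counting error (chi-square divided by its degrees of freedom, 24.8 to 57.0). Where nothing more is known of the samples, p-values measure the spread between these libraries. Positions and lengths come from GENCODE M21, on the build of mm10. Fits were checked on simulated counts. Every member with a mean of 1 CPM or more was named with its values or range, apart from 1 that is counted but not reported here, others with 10 or more reads in a library by range, and up to 4 signalling genes by smallest p; single marker genes and the promoter words were picked with values in view. The members and lists were chosen with earlier results of these data known.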

Additional observations from a re-analysis of the deposited data

How the results depend on the processing

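Under every alternative run, 0 members of the family passed the threshold, with a smallest adjusted p of 0.433. The count over all genes was 71 with DESeq2 and 1 without the filter on low counts, against 0 in edgeR with the filter. It was 0 with the replicate block, other size factors, immunoglobulin genes left out or any 1 library left out. The number of members at 1 CPM or more was 23 with CPM of the total count or without immunoglobulin genes, 26 at a limit of 0.5 CPM and 21 to 23 with 1 library left out. Same-numbered libraries of the groups did not deviate together (correlations of -0.21, -0.50 and -0.26), and no library correlated best with its own number. With 3 libraries per group, this cannot show whether same-numbered libraries shared a donor or a batch. With the replicate block the log2 fold change was -0.025 for Ccr1 and -0.049 for Xcr1, which were positive without it, and no call changed. Ccr9 was not tested without immunoglobulin genes or without vector replicate 1. Leaving out 1 library kept the direction of 11 of the 27 tested members, among them Ccl2 (-1.10 to -0.67), Ccr9 (-2.11 to -1.31) and Ccr10 (-3.57 to -0.67). For the other 16, leaving out at least 1 of the libraries turned the direction, with log2 fold changes over these fits of Ccl17 -0.23 to 0.81, Ccl25 -0.35 to 0.096, Ccl27a -0.11 to 0.19, Ccl6 -0.37 to 0.24, Ccl9 -0.23 to 0.35, Ccr1 -0.17 to 0.27, Ccr2 -0.41 to 0.19, Ccr7 -0.31 to 1.09, Cx3cl1 -1.50 to 0.61, Cxcl10 -0.24 to 0.74, Cxcl14 -0.60 to 1.35, Cxcl16 -0.72 to 1.27, Cxcl9 -0.035 to 0.65, Cxcr2 -0.10 to 0.36, Cxcr3 -0.20 to 2.45 and Xcr1 -0.41 to 0.26. The 7 members without a read were not detectable at this depth, which does not show that they are absent.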

Other observations

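Some chemokine and receptor genes carry other names and were not among the 58. Pf4, which encodes platelet factor 4 (CXCL4) and is a known product of megakaryocytes, measured 157, 89.7 and 58.7 CPM with vector alone and 93.9, 152 and 135 CPM under the Hmga2 label. Pf4 was highest in vector replicate 1, where Ccl9 was lowest, and the groups overlapped (log2 fold change 0.31, SE 0.35). Ppbp, encoding CXCL7, measured 2.68, 1.11 and 1.47 CPM and then 3.14, 3.32 and 2.33 CPM, which is 0.73 on the log2 scale (SE 0.36, adjusted p = 0.855 in edgeR). Ccrl2, an atypical receptor-like gene that binds chemerin, was even over the libraries, at 5.96 to 9.56 CPM. These genes were chosen after their values were seen.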
